A study of Mus musculus with 24 samples.

Results

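The class 4 and class 2 liver libraries of the transgenic mice (TGA) were compared, 4 libraries against 4, so 8 of the 24 libraries of the series enter the comparison. Membership was read from the sample titles, in which a genotype abbreviation is followed by a library number (1 to 4) and then by a suffix, 2, 4 or 8. The TGA class 4 group and the TGA class 2 group both come from liver of transgenic C3H/HeJ mice and differ only in the suffix. The same classes of wild-type (WT) C3H/HeJ liver, again 4 libraries each, served as the side-by-side comparison. No label explains the suffix, names the transgene or what drives it, or gives an age, a treatment or an animal. The suffix is called class below. Reading it as hepatocyte ploidy, the number of chromosome sets in a liver cell, rests on the series title alone. Nothing in the labels ties the 4 libraries of a group to 4 separate mice, so the p-values measure how libraries vary, and that variation may be technical. Those of the gene tests rest on the spread within groups of all 24 libraries and on a prior drawn from all tested genes.

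Hepatocytes are the parenchymal cells of the liver. They secrete most plasma proteins, make and burn fat, store and release glucose, and turn ammonia into urea. In rodents many of them become polyploid after weaning, through cell divisions that end without cytokinesis, so that cells with different DNA content sit side by side in a healthy liver. The small structural RNAs and small nucleolar RNAs that appear below serve the nucleus and the ribosome rather than metabolism.

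In class 4, 41 of 4875 tested genes fell relative to class 2 at an adjusted p under 0.05 (0.841%), and 0 rose (0.0%). They included the vault RNA Vaultrc5, the lipid carrier Apoe, the RNase P RNA Rpph1, the fat and sugar regulators Srebf1, Mlxipl and Gckr, the fructose enzyme Khk and the urate enzyme Uox. Most of them were listed at 0 in all 4 class 4 libraries, and class 4 libraries also held fewer genes on average, so the numbers of genes detected come first.

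Class 4 libraries held fewer genes on average than class 2 libraries. Of the 35974 gene symbols in the table, 2434, 1624, 3440 and 2867 had a value above 0 in class 4 numbers 1 to 4. In class 2 numbers 1 to 4, 2816, 3810, 4847 and 6468 genes did. The means were 2591 ± 765 and 4485 ± 1560 genes (SD, n = 4 each), and the groups overlapped. A two-sided exact permutation test gave p = 0.0857, and the smallest p that 4 against 4 allows is 0.0286. Counting only genes with a deposited value of 1 or higher, the means were 2260 and 2802 genes, a smaller difference of -542 (exact permutation p = 0.171). Over the 4875 genes that entered the tests, chosen because 4 or more of the 24 libraries had a deposited value of 1 or higher, the groups did not overlap. Class 4 libraries held 1578, 1136, 1849 and 1804 tested genes above 0, class 2 libraries 1992, 2553, 2922 and 3271, a difference of -1093 genes. A gene could enter this set through the 4 class 2 libraries alone, so this gap is a description with no test. Values of 0 made up 67.3% of the tested values in class 4 (13133 of 19500) and 44.9% in class 2 (8762 of 19500). In WT the shares were 51.2% and 45.1%, and the numbers of tested genes above 0 differed by -298. The WT libraries of number 1 stood apart, with 15147 (class 2) and 14469 (class 4) symbols above 0. Over all symbols the WT difference was -996.5 (exact permutation p = 0.743), and it turned to 1767 without class 2 number 1.

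**Figure D1:**
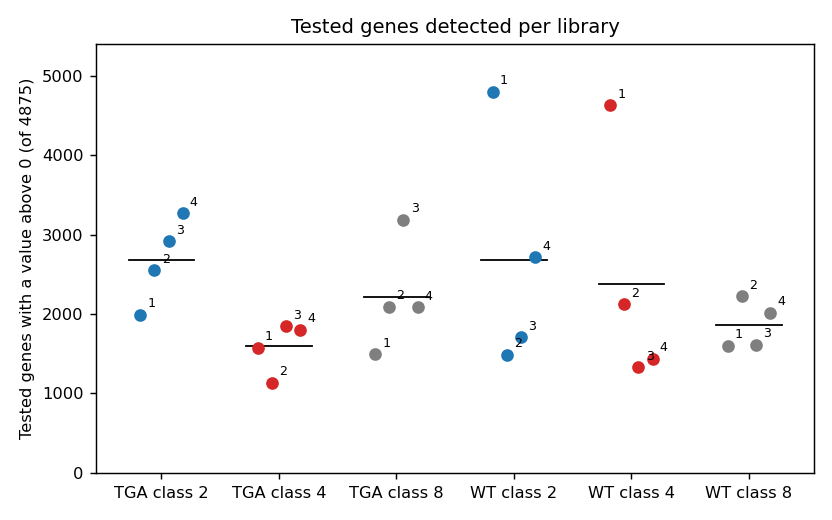
Number of the 4875 tested genes with a value above 0 (vertical axis) in each library of the 6 groups (horizontal axis). Points are libraries with their number, bars are group means. The 4 TGA class 4 libraries lie between 1136 and 1849 genes and the 4 TGA class 2 libraries between 1992 and 3271.

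A value of 0 did not show that a gene was silent. Actb, the gene of beta-actin, which every cell uses, was listed at 0 in all 4 class 4 libraries and in class 2 number 1, with 6.33, 3.81 and 3.83 in the other class 2 libraries. Eef2, a translation elongation factor, had 0, 0, 0 and 6.12 in class 4 and 7.07, 6.74, 7.16 and 7.40 in class 2. All levels here are log2(normalised count + 1), and all differences are class 4 minus class 2 on that scale. The value above 0 that occurred most often equalled 10.8, 20.8, 2.35 and 3.80 normalised counts in class 4 numbers 1 to 4 and 3.10, 1.48, 0.999 and 0.577 in class 2. The groups overlapped through class 4 number 3 and class 2 number 1. Correlations were taken across all 35974 symbols, most of them at 0 in each library and not independent replicates. Class 2 libraries correlated with each other at 0.555 to 0.731 (6 pairs). Class 4 libraries correlated with each other at 0.256 to 0.339 (6 pairs, median 0.307) and with class 2 libraries at 0.318 to 0.480 (16 pairs, median 0.367). In such bulk libraries, fewer cells of a type and less RNA per cell cannot be told apart.

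Transcripts of hepatocytes were present in every library. All 22 genes of the list of defining hepatocyte markers reached the tested set, and each class 4 library held 10 to 13 of them above 0. The 6 symbols with the highest mean over the 8 libraries were Mir6236, LOC101056014, Cyb5r3, Apoa1, Trf and Fah, of which Apoa1 and Trf encode the plasma carriers apolipoprotein A1 and transferrin. Few markers of other liver cells reached the tested set, and those that did could stand high in a class 4 library. The tested neutrophil marker reached 6.37 there and the tested Kupffer cell marker 5.0. Of the lymphocyte and erythroid markers 0 reached the tested set, while 1 Kupffer cell, 1 stellate cell and 1 neutrophil marker did, with 2 cholangiocyte and 6 endothelial ones. The summed level of 22 endothelial markers was 0 to 12.2 in class 4 and 6.25 to 14.03 in class 2, and 11 of them were at 0 in all 8 libraries. That of 20 Kupffer cell and macrophage markers was 0 to 5.0 and 0 to 5.75, with 15 at 0 in all 8 libraries. The 18 stellate markers summed to 4.01 to 7.40 in class 4 and 0 to 4.60 in class 2, the 14 cholangiocyte markers to 0 to 12.3 and 0 to 3.83, and the 14 neutrophil markers to 0 to 6.37 and 0 to 3.10. Anln encodes anillin, which cytokinesis needs and which published work on polyploid liver has knocked down. It was listed at 0 in all 8 libraries and so checks no label.

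Between the classes, 41 of 4875 tested genes fell in class 4 at an adjusted p under 0.05 (0.841% of the tested genes), and 0 rose (0.0%), by limma with Benjamini-Hochberg adjustment. At an unadjusted p under 0.05, 604 genes were lower (12.4%) and 118 higher (2.42%) in class 4. Of all tested genes, 2730 had a lower mean in class 4 (56.0%) and 1944 a higher one (39.9%), with a median difference of -0.32. Without overlap between the groups, 312 genes lay lower in class 4 (6.4%) and 52 higher (1.07%). A switch from above 0 in all 4 class 2 libraries to 0 in all 4 class 4 libraries was seen for 174 genes (3.57%), and the opposite switch for 5 (0.103%). Class 2 libraries held more genes on average, and a gene could enter the tested set through the 4 class 2 libraries alone. These switch counts are therefore a description with no test. With no filter on low values, 0 genes had an adjusted p under 0.05.

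Most of the 41 genes were such switches to 0. In class 4, 34 of them were listed at 0 in all 4 libraries, 3 in 3 libraries, 1 in 2 and 1 in 1 library, and only Apoe and Rpph1 were above 0 in all 8 libraries compared. For 39 of the 41 the groups did not overlap. For a gene at 0 in every class 4 library, the difference is minus its class 2 mean and is no fold change. Such a gene may have entered the tested set through class 2 alone. The 228 tested genes above 0 in all 8 libraries were split evenly, with 118 lower and 110 higher means, a median difference of -0.12, and unadjusted p under 0.05 for 9 lower and 13 higher genes. Genes with high levels carried more of the differences. Among the 1219 tested genes with the highest mean over all 24 libraries, the median difference was -1.44. Of these, 22.9% were lower at an unadjusted p under 0.05. Among the 1219 with the lowest mean, that share was 6.64% and the median difference was 0.0. The shares of 12.4% (all tested genes) and 22.9% (the 1219 with the highest mean) are the backgrounds given beside gene lists below.

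**Figure D2:**
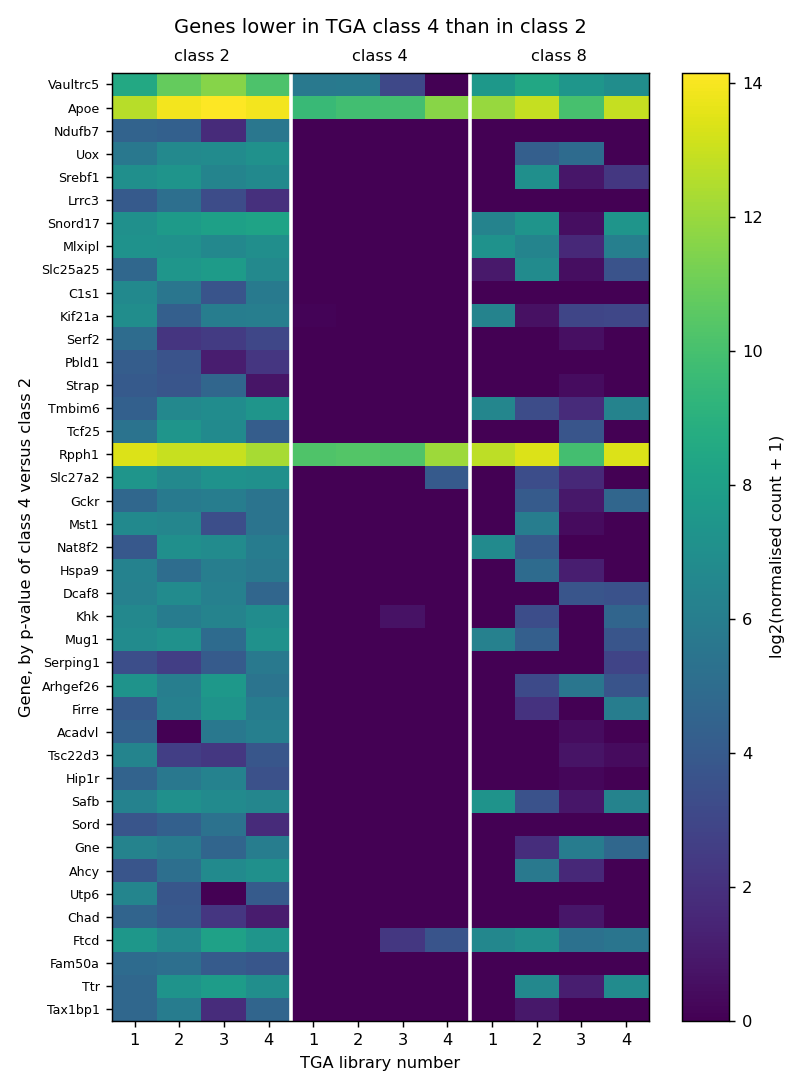
Levels of the 41 genes with adjusted p under 0.05 (rows, ordered by p) in the 12 TGA libraries (columns, by class and number), as log2(normalised count + 1). Dark cells are values at or near 0: 34 of the 41 genes are at 0 in all 4 class 4 libraries, while Apoe and Rpph1 stay above 0 in all 8 libraries of classes 2 and 4.

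How many genes passed depended on single libraries and on the scaling. Leaving out a class 4 library left 1 gene (without number 1, 2 or 3) or 3 (without number 4), and leaving out a class 2 library left 35, 2, 12 and 8 genes (without numbers 1 to 4). With the number of genes detected per library as a covariate, 1 gene remained, Vaultrc5. Vaultrc5 passed under 18 of 20 alternative settings and Apoe under 10. The median over the 41 genes was 5 of 20, with 4 for Rpph1, 5 for Khk and Ttr, 6 for Srebf1 and Mlxipl and 7 for Uox and Snord17, so most of the 41 lost their call in most settings. None of the 41 had a higher mean in class 4 under any of them. Centring each library on its mean over the tested genes moved every difference by 0.55, so that 383 genes were lower and 317 higher at an unadjusted p under 0.05, against 604 and 118 as reported. Centring on the median of the tested genes above 0 moved every difference by -0.998 and gave 805 lower and 1 higher.

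**Figure D3:**
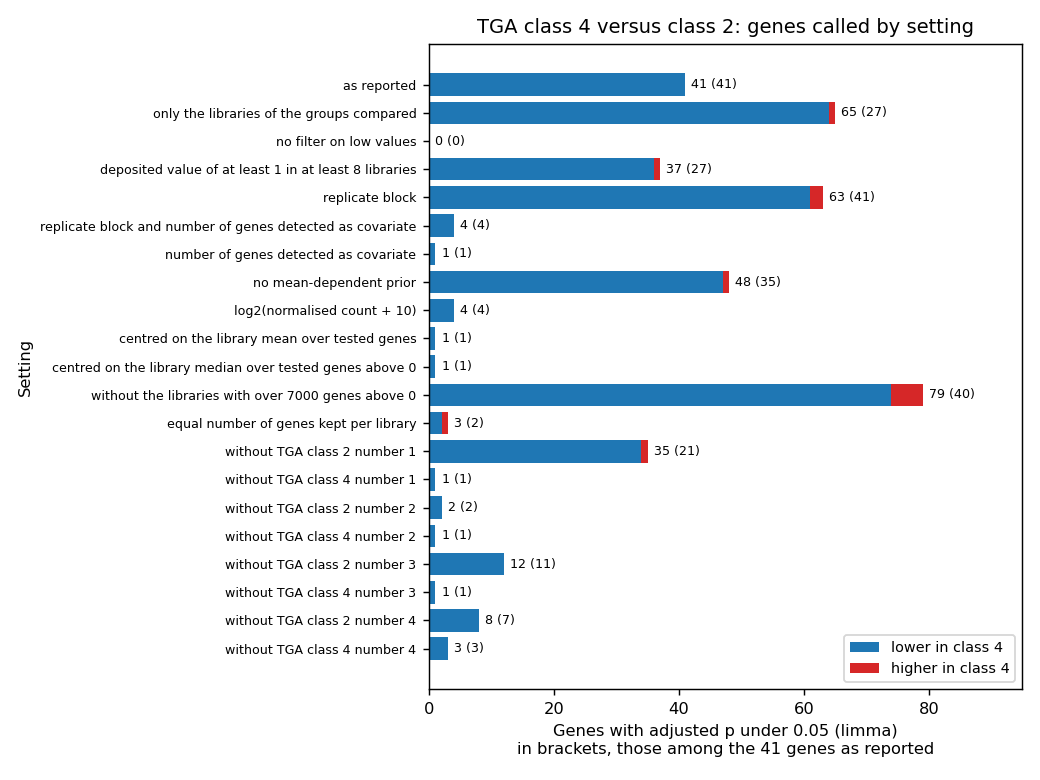
Number of genes with adjusted p under 0.05 in TGA class 4 versus class 2 (horizontal axis) under each setting (vertical axis), split into lower (blue) and higher (red) in class 4. Numbers give the total and, in brackets, how many are among the 41 genes as reported. The total runs from 0 without a filter to 79 without the libraries that hold over 7000 genes.

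The gene with the smallest p was a small RNA. Vaultrc5 encodes a vault RNA, the RNA component of large cytoplasmic ribonucleoprotein particles. Its levels were 5.71, 5.86, 3.05 and 0 in class 4 and 8.54, 10.81, 11.58 and 10.19 in class 2. The groups did not overlap, and the difference was -6.63 (SE 1.11, limma adjusted p = 0.00155). Rpph1, the RNA subunit of ribonuclease P, which trims the 5′ end of transfer RNA precursors, had 10.25, 10.35, 10.26 and 12.08 in class 4 and 13.42, 12.98, 12.98 and 12.32 in class 2. Every class 4 library was below every class 2 library, number 4 by a small margin, and the difference of -2.19 (SE 0.54, limma adjusted p = 0.0442) corresponds to a 4.56-fold lower level, with 3.13 to 6.64 at 1 SE to either side. That range leaves out the scaling, and the Rpph1 difference ran from -3.19 to -1.64 over the 20 alternative settings.

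Rn7sk, the RNA that holds the transcription elongation factor P-TEFb inactive, was at 5.10, 5.78, 7.05 and 7.24 in class 4 and at 8.64, 12.08, 11.73 and 11.10 in class 2. The groups were again apart, but the difference of -4.60 (SE 1.59) did not pass (limma adjusted p = 0.141). Rnu12, the U12 RNA of the minor spliceosome, was at 0 in all 4 class 4 libraries and at 1.30 to 6.62 in class 2 (limma adjusted p = 0.141). Of the 7 structural small RNAs tested, all 7 had lower means and 2 passed, with a median difference of -2.19. Lower at an unadjusted p under 0.05 were 4 (57.1%, backgrounds 12.4% and 22.9%). In WT all 7 also had lower means, 3 at an unadjusted p under 0.05 (2.93% of all tested genes), with a median of -0.94.

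**Figure D4:**
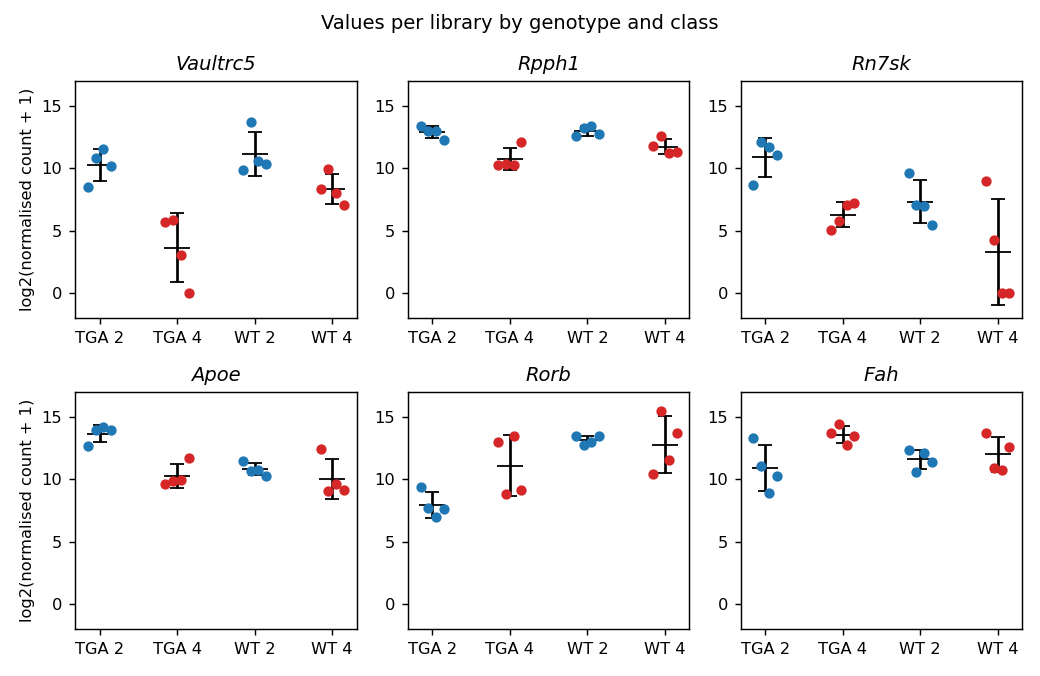
Levels of 6 genes per library (points) in TGA and WT classes 2 and 4, as log2(normalised count + 1). Horizontal bars are means and whiskers 1 SD over 4 libraries, which can reach below 0. Vaultrc5, Rpph1, Rn7sk and Apoe lie lower in TGA class 4 than in TGA class 2 in every library, and Rorb and Fah have higher means there with adjusted p of 0.0815 and 0.124.

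Small nucleolar RNAs guide chemical modification and cleavage of other RNAs. The C/D class among them is recognised by a C box near the 5′ end and a D box near the 3′ end. Snord17 and Snord15b had the smallest p in their list, and their sequences are shown because both RNAs lie within other genes, so that reads on them need not come from the small RNA itself. The sequences are those of the GENCODE vM21 annotation on GRCm38, printed 5′ to 3′ in the DNA alphabet. Capitals mark the C box core TGATGA at positions 7 to 12 and the last CTGA, the D box, which ends 4 and 5 bases before the 3′ end.
Snord17: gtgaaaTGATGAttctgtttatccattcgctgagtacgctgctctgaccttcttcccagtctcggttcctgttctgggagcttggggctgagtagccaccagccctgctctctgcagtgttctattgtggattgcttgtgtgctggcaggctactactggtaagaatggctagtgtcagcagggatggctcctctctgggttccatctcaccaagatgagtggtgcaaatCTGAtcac
Snord15b: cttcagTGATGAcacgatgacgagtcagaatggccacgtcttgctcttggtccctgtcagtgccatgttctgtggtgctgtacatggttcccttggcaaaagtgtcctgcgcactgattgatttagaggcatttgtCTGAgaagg

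Snord17 is 238 bases long, lies at chr2:144265979-144266216 on the minus strand and sits in an intron of Snx5, with no exon of another gene over it. Snord15b is 145 bases long, lies at chr7:99479563-99479707 on the minus strand within Rps3, and overlaps only an exon of a retained-intron transcript of that gene. Both motifs were searched on the RNA strand only, and of 1507 snoRNA transcripts in the annotation 26.1% hold TGATGA, 79.5% hold CTGA and 24.0% hold TGATGA followed by CTGA. A match describes letters and shows no binding.

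Snord17 was at 0 in all 4 class 4 libraries and at 7.11, 7.69, 8.04 and 8.21 in class 2 (limma adjusted p = 0.0442). Snord15b had 0, 0, 1.75 and 0 in class 4 and 6.85, 6.79, 6.61 and 6.75 in class 2, a difference of -6.31 (SE 1.70) that just missed the threshold (limma adjusted p = 0.0561). Both RNAs thus stood within a narrow range in class 2 and at or near 0 in class 4, while the host genes Snx5 and Rps3 were listed at 0 in all 8 libraries. Snord118, the U8 RNA needed for maturation of the large ribosomal subunit RNAs, was at 0, 0, 0 and 6.44 against 6.43 to 7.40 in class 2 (limma adjusted p = 0.116). Scarna13, a Cajal body RNA, was at 0 in class 4 and at 5.61, 5.22, 6.59 and 0 in class 2 (limma adjusted p = 0.146).

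All 14 small nucleolar and Cajal body RNAs tested had lower means in class 4. At an unadjusted p under 0.05, 6 of the 14 were lower (42.9%, backgrounds 12.4% and 22.9%), and Snord17 passed. The median difference was -2.63 in TGA and -2.90 in WT. In WT 13 of 14 had lower means, and 8 were lower at an unadjusted p under 0.05, against 2.93% of all tested genes. An unadjusted interaction p under 0.05 was found for 0 of 14. Of all tested genes, 4.76% (lower in TGA) and 1.58% (higher) had one, so 0 of 14 shows no likeness of the genotypes. The mean level of the list was 1.48, 1.80, 0.871 and 2.13 in TGA class 4 numbers 1 to 4 and 3.61, 3.39, 0.655 and 1.22 in WT class 4. The counts of near-identical copies of such RNAs can be split between symbols. Malat1, a nuclear long non-coding RNA, was at 8.54, 8.44, 7.87 and 9.31 in class 4 and at 9.84, 11.73, 11.81 and 11.26 in class 2, without overlap (-2.62, SE 0.87, limma adjusted p = 0.124).

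Among the plasma proteins, Apoe changed. Apolipoprotein E carries lipid in very low density lipoprotein and remnant particles. Its levels were 9.58, 9.87, 9.92 and 11.66 in class 4 and 12.65, 13.90, 14.15 and 13.90 in class 2. Every class 4 library was below every class 2 library, and the difference of -3.39 (SE 0.67, limma adjusted p = 0.0192) corresponds to a 10.5-fold lower level, with 6.58 to 16.8 at 1 SE to either side. That range leaves out the scaling, and the Apoe difference ran from -4.39 to -2.84 over the 20 alternative settings. Ttr, which encodes the thyroxine and retinol carrier transthyretin, was at 0 in all 4 class 4 libraries and at 4.72, 7.25, 7.79 and 6.99 in class 2 (limma adjusted p = 0.0479). Ttr was the called gene among the 22 hepatocyte markers, of which 21 had lower means. Of the 22, 8 were lower at an unadjusted p under 0.05 (36.4%, backgrounds 12.4% and 22.9%). The median difference was -2.94 in TGA and 0.14 in WT.

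Other markers of that list had the same form without passing. Fgb, a fibrinogen chain, was at 0 in class 4 and at 4.16 to 6.71 in class 2 (limma adjusted p = 0.0882). Serpina1b, an alpha-1-antitrypsin, was at 0, 0, 0 and 7.06 in class 4 against 5.54 to 7.74 in class 2 (limma adjusted p = 0.104). The list was not at 0 as a whole, since the mean level of its 22 genes was 3.10 to 4.35 per library in class 4 and 5.71 to 7.10 in class 2.

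In the coagulation and complement list, C1s1 fell and 23 of 26 tested genes had lower means. C1s1, a serine protease of the first complement component, was at 0 in class 4 and at 6.72, 5.53, 3.68 and 5.81 in class 2 (limma adjusted p = 0.0442). Serpinc1, the thrombin inhibitor antithrombin, was at 0 in class 4 and at 4.80 to 6.55 in class 2 (limma adjusted p = 0.0599). Protein C (Proc), an anticoagulant protease, had 4.85 in class 4 number 3 and 0 in the others, with 4.43 to 7.90 in class 2 (limma adjusted p = 0.0935). Complement C4b was likewise above 0 in class 4 number 3 alone, at 3.85 (class 2 6.42 to 7.91, limma adjusted p = 0.104). Of the list, 8 genes were lower at an unadjusted p under 0.05 (30.8%, backgrounds 12.4% and 22.9%). Its median difference was -1.75 in TGA and 0.13 in WT.

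All 11 acute phase genes tested had lower means, 3 at an unadjusted p under 0.05 (27.3%, backgrounds 12.4% and 22.9%). Of these 11, 0 passed, and the median was -2.51 in TGA and -0.23 in WT. Itih4, a plasma protease inhibitor heavy chain, had 0, 0, 4.22 and 0 in class 4 against 5.55 to 7.29 in class 2 (limma adjusted p = 0.104). For haptoglobin (Hp), the values of 0, 0, 3.39 and 7.5 in class 4 overlapped those of 5.75 to 7.35 in class 2 (limma adjusted p = 0.284). Outside these lists, Serping1, the C1 inhibitor, and Mug1, a murinoglobulin protease inhibitor, were among the 41 genes, both at 0 in class 4 (limma adjusted p = 0.0442 each).

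Regulators of fat synthesis and sugar use were among the genes that fell. Srebf1, which encodes a transcription factor that switches on fatty acid synthesis genes in response to insulin, was at 0 in all 4 class 4 libraries and at 7.07, 7.33, 6.4 and 6.73 in class 2 (limma adjusted p = 0.0442). Mlxipl, which encodes the carbohydrate response factor ChREBP, was at 0 in class 4 and at 7.20, 7.14, 6.63 and 7.01 in class 2 (limma adjusted p = 0.0442). Both class 2 groups spanned less than 1 unit, and every class 4 library lay at 0. Gckr, the regulatory protein that binds glucokinase in the nucleus, was at 0 in class 4 and at 4.74, 5.75, 6.0 and 5.45 in class 2 (limma adjusted p = 0.0442). Khk, ketohexokinase, the first enzyme of fructose use, had 0, 0, 0.70 and 0 in class 4 and 6.59, 5.91, 6.32 and 6.87 in class 2, a difference of -6.25 (SE 1.56, limma adjusted p = 0.0442). Sord, sorbitol dehydrogenase, which makes fructose from sorbitol, also passed (limma adjusted p = 0.0443), at 0 in class 4 and at 1.77 to 5.32 in class 2.

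Of the 25 lipogenesis genes tested, 22 had lower means and 2 passed, Srebf1 and Mlxipl. Lower at an unadjusted p under 0.05 were 8 (32.0%, backgrounds 12.4% and 22.9%). The median difference was -2.34 in TGA and -0.65 in WT. Thrsp, the lipogenic protein Spot 14, was at 0, 0, 0 and 4.93 in class 4 against 6.55 to 7.27 in class 2 (limma adjusted p = 0.0937). Aacs, which activates acetoacetate for lipid synthesis, was at 3.85 in class 4 number 3 and at 0 in the others, against 4.95 to 6.83 (limma adjusted p = 0.0882). Of the 25 genes for gluconeogenesis and glucose handling, 20 had lower means, 8 at an unadjusted p under 0.05 (32.0%, backgrounds 12.4% and 22.9%). From this list 2 passed, Gckr and Khk, and the median was -2.29 in TGA and -0.38 in WT. Tkfc, which acts on glyceraldehyde from fructose, was above 0 in class 4 number 1, at 5.27, and at 3.85 to 7.01 in class 2 (limma adjusted p = 0.141). The insulin receptor gene Insr had a difference of -4.29 (SE 1.52, limma adjusted p = 0.143).

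Cholesterol genes gave fewer measurable members. Of 8 tested, 7 had lower means, 2 at an unadjusted p under 0.05 and 0 past the threshold, with a median of -1.21. The 2 (25%) are close to the 22.9% of the 1219 tested genes with the highest mean.

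In fatty acid oxidation, Slc27a2 and Acadvl passed. Slc27a2 encodes a transporter and acyl-CoA synthetase for very long chain fatty acids and had 0, 0, 0 and 4.01 in class 4 and 7.40, 6.64, 7.20 and 7.07 in class 2, a difference of -6.07 (SE 1.51, limma adjusted p = 0.0442). Acadvl, the first dehydrogenase of mitochondrial beta-oxidation for very long chains, was at 0 in class 4 and at 4.33, 0, 5.64 and 6.09 in class 2 (limma adjusted p = 0.0442). Of the 20 genes tested for oxidation and ketogenesis, 15 had lower and 4 higher means, and the median was -1.51. At an unadjusted p under 0.05, 6 were lower (30%), against 12.4% of all tested genes and 22.9% of the 1219 with the highest mean. Fabp1, the liver fatty acid binding protein, was at 6.01, 0, 0 and 6.68 in class 4, below 6.77 to 8.06 in class 2 (limma adjusted p = 0.301).

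Uox, urate oxidase, the peroxisomal enzyme that ends purine breakdown in mice, was at 0 in all 4 class 4 libraries and at 5.65, 6.64, 6.81 and 7.18 in class 2 (limma adjusted p = 0.0442). Ftcd, which moves the formimino group of histidine breakdown onto folate, had 0, 0, 2.29 and 3.70 in class 4 and 7.48, 6.58, 8.10 and 7.39 in class 2, a difference of -5.89 (SE 1.52, limma adjusted p = 0.0445). Ahcy, which splits S-adenosylhomocysteine, was at 0 in class 4 and at 3.71 to 7.08 in class 2 (limma adjusted p = 0.0445). All 3 genes were measured in each class 2 library, and Ftcd alone kept a value in some class 4 libraries.

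Of 34 tested genes of amino acid and folate catabolism, 30 had lower means and 2 passed, Ftcd and Ahcy. At an unadjusted p under 0.05, 15 were lower (44.1%, backgrounds 12.4% and 22.9%) and 2 higher (2.42% of all tested genes were). The median was -2.25 in TGA and -0.24 in WT. Aspg, an asparaginase, was at 1.19 in class 4 number 4 and at 0 in the others, against 5.47 to 6.96 in class 2 (limma adjusted p = 0.0561). Uroc1, urocanase, which acts upstream of Ftcd on histidine, was at 3.06 in class 4 number 4 alone, against 3.81 to 8.41 (limma adjusted p = 0.0682). Fah, the last enzyme of tyrosine breakdown, had a higher mean in class 4.

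Of 11 urea cycle and ammonia genes, 10 had lower means and 0 passed, with a median of -2.29 in TGA and -0.92 in WT. In TGA 5 were lower at an unadjusted p under 0.05 (45.5%, backgrounds 12.4% and 22.9%). Arg1, arginase, which releases urea, was at 0, 0, 0 and 2.26 in class 4 against 4.93 to 7.21 in class 2 (limma adjusted p = 0.0776). Asl, argininosuccinate lyase, was at 1.90 in class 4 number 2 and at 0 in the others, against 2.12 to 6.38 (limma adjusted p = 0.0989), with a WT difference of -4.88. Glud1, glutamate dehydrogenase, was at 3.57, 0, 3.08 and 0 in class 4 and at 7.10 to 7.86 in class 2 (limma adjusted p = 0.104).

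Genes known for the periportal zone, the side of the liver lobule where blood enters, included several of these enzymes. Of 22 tested, 19 had lower means and 0 passed, with a median of -3.15 in TGA and -1.17 in WT. In TGA 12 were lower at an unadjusted p under 0.05 (54.5%, backgrounds 12.4% and 22.9%). Apoa4, an apolipoprotein of triglyceride-rich particles, was at 0, 0, 6.89 and 7.6 in class 4 and at 7.94, 9.35, 10.79 and 10.91 in class 2, without overlap (-6.12, SE 1.72, limma adjusted p = 0.0682). Of 15 pericentral genes, those of the zone where blood leaves, 11 had lower means and 0 passed. In WT 11 of 15 also had lower means, with a median of -0.48, and in TGA the median was -1.37. The 3 lower at an unadjusted p under 0.05 (20%) lie between the share of all tested genes (12.4%) and that of the 1219 with the highest mean (22.9%). Glul, glutamine synthetase, confined to the innermost pericentral cells in healthy liver, was at 0 in class 4 and at 0, 5.56, 3.07 and 6.4 in class 2 (limma adjusted p = 0.237). The difference between the lists of the zones was not tested.

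In the respiratory chain, nuclear and mitochondrial genes had medians of opposite sign. Ndufb7, a nuclear-encoded accessory subunit of complex I, was at 0 in class 4 and at 4.48, 4.34, 1.74 and 5.60 in class 2 (limma adjusted p = 0.0442). Of 13 nuclear-encoded genes tested, 8 had lower means, 6 at an unadjusted p under 0.05 (46.2%, backgrounds 12.4% and 22.9%). Their median was -1.35 in TGA and 0.43 in WT. Ndufb9, another complex I subunit, was at 0, 0, 0 and 3.82 against 4.22 to 6.52 (limma adjusted p = 0.186). Of the 7 mitochondrially encoded genes tested, 6 had higher means, 1 of them (ND5) at an unadjusted p under 0.05, and 0 passed, with a median of 1.65 in TGA and 3.88 in WT. ND5, a core subunit of complex I, was at 11.51, 8.15, 12.32 and 11.35 in class 4 and at 8.03, 6.58, 8.26 and 8.84 in class 2, a difference of 2.90 (SE 1.17, limma adjusted p = 0.215). The ND5 groups overlapped through class 4 number 2, and ND4 was at 0 in that library and at 8.89 to 9.86 in the other class 4 libraries (limma adjusted p = 0.559).

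The lists of the secretory and detoxifying machinery gave mostly lower means, and 0 of their genes passed. Of 19 tested genes for chaperones of the endoplasmic reticulum and the unfolded protein response, 18 had lower means and 0 passed. Lower at an unadjusted p under 0.05 were 6 (31.6%, backgrounds 12.4% and 22.9%). The median was -2.46 in TGA and -0.26 in WT. Herpud1, which takes part in degradation of proteins from that compartment, was at 4.14 in class 4 number 3 and at 0 in the others, against 6.08 to 7.18 in class 2 (limma adjusted p = 0.104). The lectin chaperone Calr was at 0, 0, 0 and 2.26 against 2.04 to 7.98 (limma adjusted p = 0.128). Outside that list, Tmbim6 was among the 41 genes that passed, at 0 in class 4 and at 4.33 to 7.40 in class 2 (limma adjusted p = 0.0442). It encodes a membrane protein of the same compartment known as Bax inhibitor 1.

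Of 33 cytochrome P450 and conjugation genes tested, 30 had lower means, 13 at an unadjusted p under 0.05 (39.4%, backgrounds 12.4% and 22.9%). Of the 33, 0 passed, and the median was -2.51 in TGA and -0.52 in WT. Ephx2, soluble epoxide hydrolase, was at 0 in class 4 and at 0, 5.10, 4.50 and 1.55 in class 2 (limma adjusted p = 0.0714). Cyp2a12 was at 2.26 in class 4 number 4 alone, against 4.93 to 6.71 (limma adjusted p = 0.0935). Of 12 bile acid genes, 10 had lower means and 6 were lower at an unadjusted p under 0.05, among them Cyp8b1, the sterol 12-alpha-hydroxylase of cholic acid synthesis (-3.47, SE 1.30, limma adjusted p = 0.178). The male-biased liver genes had 10 of 11 lower means, 5 at an unadjusted p under 0.05 (45.5%, backgrounds 12.4% and 22.9%). Mup20, a major urinary protein secreted by male liver, was at 0 in class 4 and at 5.61, 3.81, 4.91 and 7.29 in class 2 (limma adjusted p = 0.0513). Major urinary protein genes are near-identical copies, between which reads can be split.

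Among 20 hepatocyte transcription factors, 15 had lower means, 5 at an unadjusted p under 0.05 and 0 past the threshold, with a median of -1.44 in TGA and 0.09 in WT. The 5 (25%) are close to the 22.9% of the 1219 tested genes with the highest mean, of which 71.2% had lower means. Of the 20 factors, 11 belong to those 1219. Rxra, the common partner of liver nuclear receptors, was at 0, 0, 0.44 and 0 in class 4 and at 1.26, 6.36, 6.96 and 6.74 in class 2 (limma adjusted p = 0.116). Hnf4a, the nuclear receptor that defines hepatocytes, was at 0, 2.35, 0 and 4.69 in class 4, overlapping 4.34 to 6.66 in class 2 (limma adjusted p = 0.222). Tef, a clock-controlled factor, was above 0 in all 8 libraries, at 1.33 to 4.18 in class 4 and 5.22 to 6.37 in class 2 (limma adjusted p = 0.282).

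Of 22 cytosolic ribosomal protein genes tested, 16 had lower means and 0 passed, with a median of -1.15. At an unadjusted p under 0.05, 3 were lower (13.6%), close to the 12.4% of all tested genes. Rps15 was at 0 in class 4 and at 3.72 to 6.01 in class 2 (limma adjusted p = 0.0882). Of 20 tumour suppressors, 13 had lower means (56.0% of all tested genes did) and 4 were lower at an unadjusted p under 0.05 (20%, against 12.4%). Among them, Bap1, a nuclear deubiquitinase, was at 0 in class 4 and at 6.62, 0, 5.51 and 3.18 in class 2 (limma adjusted p = 0.141). Of 8 p53 targets and growth arrest genes, 5 had lower means. Gadd45g, a stress-induced growth arrest gene, was at 5.15 in class 4 number 4 and at 0 in the others, against 6.73 to 8.29 in class 2 (limma adjusted p = 0.0561). Genes of DNA replication and mitosis were hardly measured, with 3 and 5 tested and 0 past the threshold.

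The medians of the lists were read against all tested genes (-0.32) and against the 1219 tested genes with the highest mean (-1.44), since most of the lists hold abundant liver genes. Of those 1219, 71.2% had lower means and 22.9% were lower at an unadjusted p under 0.05. The shares over all tested genes were 56.0% and 12.4%. Of the 22 hepatocyte markers 15 belong to those 1219, of the 34 amino acid and folate genes 20, and of the 22 ribosomal genes 3. Of the 28 lists with at least 5 tested genes, 16 had a TGA median below -1.44. The hepatocyte transcription factors were below it only narrowly (-1.442 against -1.439). Of these 16 lists, 1 had a WT median below -1.44 as well, the small nucleolar and Cajal body RNAs. The value of -1.44 comes from TGA and none was taken for WT, so this count does not compare the genotypes. The lists overlap and each library contributes to all of them, so that their medians are not independent. Under the centring on library means and on library medians, the sign of the median turned for p53 targets, long non-coding RNAs, DNA replication, mitosis and fetal liver genes, and for none of the other 26 lists with at least 3 tested genes. The tumour suppressors, with 13 lower and 7 higher means as reported, had 10 of each after centring on library means.

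**Figure D5:**
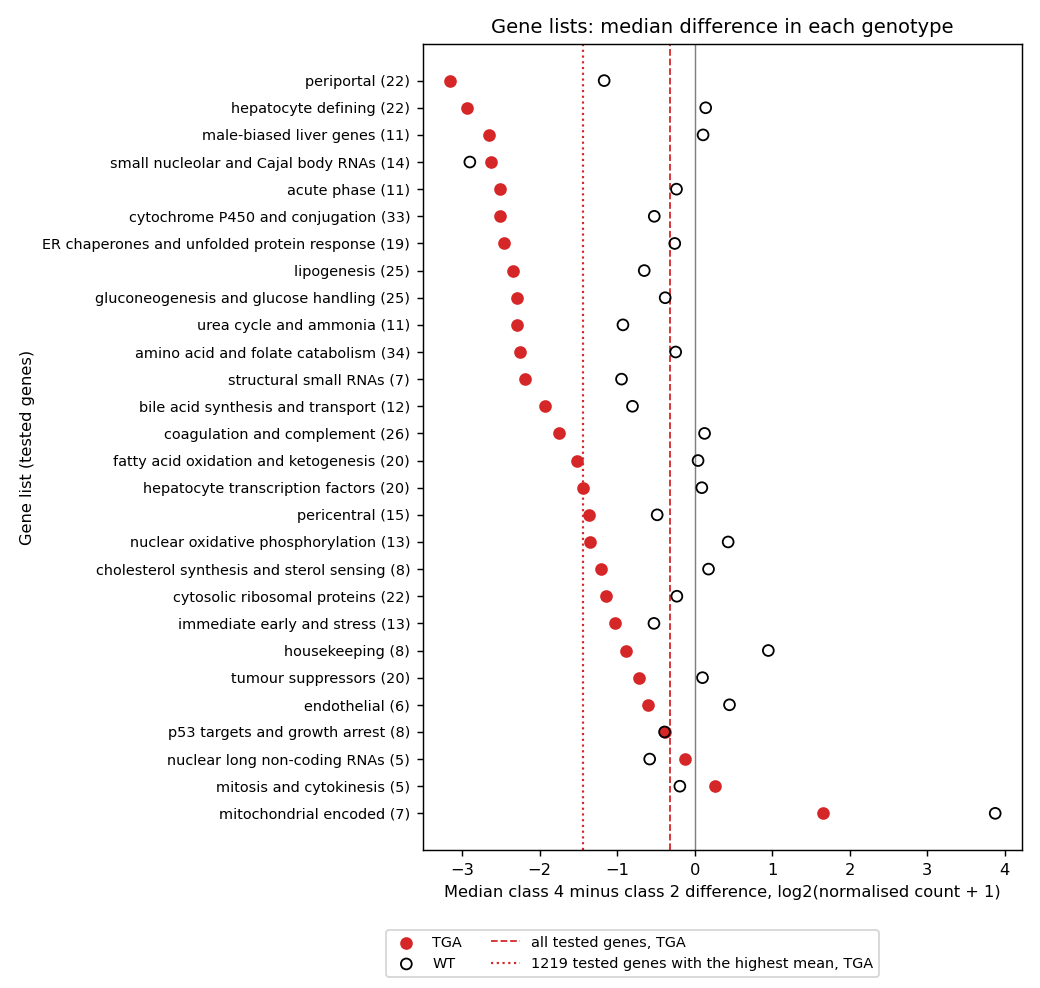
Median class 4 minus class 2 difference of log2(normalised count + 1) (horizontal axis) for each list with at least 5 tested genes (vertical axis, number tested in brackets). Filled red circles are TGA and open circles WT. Vertical lines mark 0, the median of all tested TGA genes (-0.32, dashed) and that of the 1219 tested genes with the highest mean (-1.44, dotted). Periportal genes are lowest in TGA at -3.15, and mitochondrially encoded genes are highest at 1.65.

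The remaining genes that fell belong to varied functions. Hspa9, the mitochondrial Hsp70 chaperone, was at 0 in class 4 and at 5.03 to 6.27 in class 2. Slc25a25, a mitochondrial carrier for ATP-Mg and phosphate, was at 0 against 4.72, 7.42, 7.77 and 6.65. Mst1, which encodes the liver-made macrophage stimulating protein, was at 0 against 3.38 to 6.70. Kif21a, a kinesin, had 0.13 in class 4 number 1, 0 in the others, and 4.31 to 6.95 in class 2. Firre, a nuclear long non-coding RNA of the X chromosome, was at 0 against 4.01 to 7.28, and Tsc22d3, a glucocorticoid-induced factor, at 0 against 2.28 to 6.37. The limma adjusted p of each of these 6 genes was 0.0442. Strap, Tcf25, Serf2, Lrrc3 and Pbld1 were also at 0 in every class 4 library, with class 2 values from 0.82 (Strap) to 7.38 (Tcf25).

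No gene rose at the threshold. The gene closest to it was LOC108168367, with 6.70, 6.68, 4.51 and 6.77 in class 4 and 2.79, 0, 1.17 and 1.54 in class 2 (4.79, SE 1.35, limma adjusted p = 0.0704). Rorb, which encodes an orphan nuclear receptor related to the clock-linked ROR factors, was at 12.98, 8.79, 13.42 and 9.11 in class 4 and at 9.38, 7.70, 6.96 and 7.62 in class 2 (3.16, SE 0.92, limma adjusted p = 0.0815). The Rorb groups overlapped, since class 2 number 1 lay above class 4 numbers 2 and 4. Fah, fumarylacetoacetase, was at 13.71, 14.40, 12.73 and 13.42 in class 4 and at 13.27, 11.05, 8.86 and 10.26 in class 2 (2.71, SE 0.90, limma adjusted p = 0.124). Baz2b, a bromodomain protein gene, was at 10.70, 11.29, 10.78 and 10.66 in class 4 and at 10.66, 7.85, 6.54 and 7.0 in class 2 (2.85, SE 0.92, limma adjusted p = 0.118). In Fah and Baz2b, class 2 number 1 came up to the level of class 4. Gm31305, a predicted gene, was at 12.32, 10.28, 10.04 and 10.10 against 9.91, 8.04, 8.42 and 8.67, without overlap (1.93, SE 0.64, limma adjusted p = 0.124).

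Of the 15 genes with the smallest p among those higher in class 4, 9 were at 0 in all 4 class 2 libraries and 4 were above 0 in all 8, with adjusted p from 0.0704 to 0.141. Sh3pxd2b, an adaptor of podosomes, was at 0, 4.98, 3.17 and 3.73 in class 4 and at 0 in class 2 (limma adjusted p = 0.0989). Map3k6, a stress kinase, was at 0, 6.02, 6.01 and 3.80 (limma adjusted p = 0.104), and Kcnn3, a calcium-activated potassium channel, at 3.57, 0, 6.46 and 5.81 (limma adjusted p = 0.124), both at 0 in class 2. Each of these was missing from 1 class 4 library, so a value above 0 in class 4 was not shared by all 4 libraries. Myc, the growth-promoting transcription factor, was at 6.93, 0, 7.08 and 4.0 in class 4 and at 0 in all 4 class 2 libraries (4.50, SE 1.77, limma adjusted p = 0.206). Egr1, another immediate early gene, had the opposite pattern, at 0 in class 4 and at 0, 6.38, 1.72 and 5.75 in class 2 (limma adjusted p = 0.209).

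In WT, the same comparison gave 0 genes lower (0.0%) and 0 higher (0.0%) at an adjusted p under 0.05, with 143 lower (2.93%) and 83 higher (1.7%) at an unadjusted p under 0.05, by limma. The lowest adjusted p was 0.334. Lower means were about as common as higher ones, 2527 (51.8%) and 2347 (48.1%), with a median difference of -0.05. This balance depended on the libraries of number 1. Leaving out WT class 4 number 1 moved the median to -0.36, and leaving out WT class 2 number 1 moved it to 0.22. Without overlap, 28 genes lay lower (0.574%) and 19 higher (0.39%) in WT class 4. From above 0 in all class 2 to 0 in all class 4 libraries, 1 gene switched (0.0205%). WT class 4 number 1 had only 249 of the 4875 tested genes at 0. Few genes could therefore switch in WT, and these counts are no measure of WT against TGA. Of the 41 genes that fell in TGA, 32 had a lower and 9 a higher mean in WT class 4, 5 at an unadjusted p under 0.05, with a median difference of -0.48 in WT against -5.70 in TGA. Apoe was at 12.42, 9.01, 9.57 and 9.10 in WT class 4 and at 11.43, 10.67, 10.75 and 10.27 in WT class 2, a difference of -0.76 (SE 0.67). Vaultrc5 was at 8.35, 9.98, 8.02 and 7.07 in WT class 4 and at 9.91, 13.71, 10.61 and 10.35 in WT class 2, a difference of -2.79 (SE 1.11). The WT groups of Apoe overlapped, and those of Vaultrc5 overlapped through class 4 number 2 and class 2 number 1.

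The difference between genotypes was tested as an interaction, and 0 genes passed in either direction (0.0% each), with a lowest adjusted p of 0.716. At an unadjusted p under 0.05, 232 genes were lower in TGA relative to WT (4.76%) and 77 higher (1.58%). None of the 41 genes is therefore shown to differ between TGA and WT in its response to class, although 31 of them had an unadjusted interaction p under 0.05, a count that the choice of genes by their TGA difference favours. Among the genes with the smallest interaction p, Tnks1bp1, a tankyrase-binding protein gene, differed by -5.57 in TGA and 3.61 in WT (unadjusted p = 0.000294), and F10, coagulation factor X, by -5.08 and 2.89 (unadjusted p = 0.00103). Several genes listed in TGA class 2 were at 0 in most WT libraries of both classes. Uox was above 0 only in number 1 of each WT class (6.13 in class 4 and 6.12 in class 2), and Khk was at 0 in 3 of 4 WT class 2 libraries.

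The TGA class 8 libraries lay between the others for most of the 41 genes. Their mean was below that of class 2 for 41 of 41 genes and above that of class 4 for 34, and 7 genes were at 0 in all 4 class 8 libraries as well. Since these genes were chosen for a high class 2 and a low class 4 level, this order is a description and was not tested. Apoe was at 11.95, 12.89, 10.05 and 12.89 in class 8, and Vaultrc5 at 7.54, 8.47, 7.43 and 6.91. Mlxipl, at 0 in class 4, was at 7.23, 6.37, 1.61 and 6.08 in class 8, while Ndufb7 and C1s1 were at 0 in all 4 class 8 libraries. Of the tested values in TGA class 8, 54.6% were 0, between the shares of class 4 and class 2.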

How the data were processed

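RNA-seq was done on 24 mouse liver libraries, in 6 groups of 4. Per the labels' protocols, the RNA kit was one for formalin-fixed tissue, NuGen libraries were pooled, and reads were single-end and 75 bp long. The tools TopHat and edgeR and the build mm9 were used per the submitters' processing notes. For versions, counting program, annotation and strand setting nothing is stated in the sources used here.

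The authors deposited 1 table in natural log units. Its values look like ln(count + 1) after quantile normalisation (20 of 24 libraries share 1 highest value). This unit is inferred and stated by no label. Division by ln 2 gave log2 values. Totals of reads cannot be recovered, so depth is not known and counting intervals are left out. Of the symbols, 90.6% matched RefSeq symbols of GRCm38.p6. Gene positions and snoRNA sequences were read from GENCODE vM21 on GRCm38 by name, and no coordinate was converted from mm9.

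The tested set (4875 genes) had deposited values of 1 or higher in 4 or more of 24 libraries. A limma-trend model (limma 3.58.1, R 4.3.3), whose prior depends on the mean level, was fitted to all 24 libraries with 1 mean per group (18 residual and 27.8 prior degrees of freedom), without covariates, and p-values were adjusted by Benjamini-Hochberg over all tested genes (threshold 0.05). Numbers of genes detected were compared by two-sided exact permutation.

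Named genes are the 15 with the smallest p in each direction, up to 4 with the smallest p in each list with at least 3 tested genes, the 5 with the smallest interaction p, the 6 with the highest mean, and Anln with 4 housekeeping genes. The other genes among the 41, and the class 2 values given for them, were chosen after their values were seen. Members and gene lists were chosen with earlier results of these data known, and the alternative that keeps an equal number of genes per library was chosen after seeing the data. Alternatives were other filters, scalings, pseudocounts, covariates, sample sets and a block for the replicate number. Some genes that this rule names are not reported here.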

Additional observations from a re-analysis of the deposited data

Results flagged for a closer look

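A library was flagged where its gap to the nearest of the other 3 of its group, divided by the range of the group, exceeded Dixon's critical value for 4 values. Of 48 groups of 4 values checked, 8 were flagged, and chance flags about 1 in 20. In class 4, TGA number 4 was the high library for Apoe (11.66, nearest 9.92), Rpph1 (12.08, nearest 10.35) and Slc27a2 (4.01, the others at 0). TGA number 3 of class 4 was the high library for Snord15b (1.75, the others at 0) and Khk (0.70, the others at 0), and the low library for LOC108168367 (4.51, nearest 6.68). TGA number 1 of class 4 was high for Gm31305 (12.32, nearest 10.28). In class 2, TGA number 1 was low for Apoe (12.65, nearest 13.90). Where the other values are all 0, any value above 0 is flagged.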

How the results depend on the processing

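The 41 genes became 65 with only the 8 libraries compared in the fit (27 shared with the 41), 0 without a filter on low values, 79 without the libraries of over 7000 genes (40 shared), 4 on log2(normalised count + 10), 1 with the number of genes detected as covariate, 1 after centring on library means, 1 after centring on library medians, and 3 with an equal number of 1624 genes kept per library, an alternative chosen after seeing the data (2 lower and 1 higher). Without a filter, 956 genes were lower and 221 higher at an unadjusted p under 0.05. A filter at 8 libraries gave 37 and no mean-dependent prior 48. Leaving out each replicate gave 1 to 35 genes. The cause of these changes was not tested. All calls were lower in class 4 in 12 of the 20 alternatives, and of the 7 with calls in both directions, 6 called LOC108168367 higher.

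With the replicate number as a block, 63 genes were called (all 41 among them), and 4 with the block and the number of genes detected as covariate (Apoe, Mug1, Snord17 and Vaultrc5). The deviations of same-numbered TGA libraries correlated at -0.0056 to 0.066 across genes, so the numbers were not taken to pair libraries. Of 4 TGA class 4 libraries, 2 correlated best with the class 2 library of their own number, a hint from the data and not the design. With the block, the detection difference kept its value of -1894 with a sign-flip p = 0.125 by exact permutation, the smallest that 4 pairs allow.

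WT gave 0 genes in 18 of 20 alternatives, 2 with only its own 8 libraries in the fit and 5 without class 4 number 1. The interaction gave 0 in 26 of 28, and 1 (Mir6236) after centring on library means or without WT class 4 number 1. For detection, the difference was -542 over genes with a deposited value of 1 or higher (exact permutation p = 0.171). Over tested genes, a set that class 2 values can fill, it was -1093, a description with no test. Over all symbols it ran from -2450 to -1233 when a replicate was left out, with exact permutation p = 0.0286 at -2450 (without class 2 number 1). The depth is unknown, so how far it limits the 67.3% of tested class 4 values at 0 was not tested.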
